A study of Mus musculus with 26 samples.

Results

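The MHC class I presentation genes comprised 10 genes chosen by name, namely the heavy chains H2-K1, H2-D1, H2-Q4, H2-Q6, H2-Q7 and H2-T23, the light chain B2m, the peptide transporter subunit Tap1, the loading chaperone Tapbp and the transcriptional regulator Nlrc5. They were found by gene name in the monocyte and small peritoneal macrophage (SPM) tables and by the same gene identifier in the lung table, and made up 10 of 54375, 54863 and 57186 listed genes respectively. All 10 passed the filter on low counts in each of the 3 tables. The study compared the RNA of sorted cells from naïve WT mice and from mice lacking the atypical chemokine receptor ACKR2, a receptor that takes up inflammatory CC chemokines without conventional signalling. Bone marrow monocytes came as 4 WT and 4 ACKR2-/- libraries, SPMs from peritoneal lavage as 4 and 4, and lung macrophages sorted as MHCII negative as 5 and 5, giving 26 libraries. All mice were female and untreated, and their age is not given in the labels. ACKR2-/- mice lack the receptor in the whole body and were bred at the study's own facility, whereas the WT C57BL/6J mice were bought from a commercial breeder, so genotype and source of the animals cannot be told apart. Each monocyte and SPM library pooled the cells of 5 mice, and pooling is not given for the lung.

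Total counts per library were 15450670 to 19218213 for monocytes, 12781144 to 35400034 for SPMs and 19950019 to 29770252 for lung macrophages. Ackr2 itself had 0 counts in all 4 ACKR2-/- monocyte libraries, against 0 to 2 in WT, and 0 counts in all 4 ACKR2-/- SPM libraries, against 5 to 9 in WT, so that it checked the labels only weakly in these cells. In the lung it had 7 to 50 counts in ACKR2-/- libraries and up to 469 in WT, but the library labelled WT replicate 5 had 0. The lung library labelled WT replicate 3 also stood apart, with a summed level of 10 MHC class II genes of 100216 CPM (counts scaled to library size, with TMM factors within the cell type) against 3972 to 9878 CPM in the other 9 lung libraries, although the cells were sorted as MHCII negative. Monocyte markers summed to 5010 to 9569 CPM in the monocyte libraries, 919 to 2830 CPM in SPMs and 1428 to 2726 CPM in the lung. Macrophage markers summed to 81113 to 136338 CPM in SPMs and 18746 to 32775 CPM in the lung. The macrophage list also summed to 24362 to 65071 CPM in the monocyte libraries, so it does not set lung macrophages apart from monocytes. Epithelial markers summed to 253 to 19052 CPM in the lung libraries.

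MHC class I molecules display fragments of a cell's own proteins to CD8 T cells and are read by natural killer cells as a sign of an intact self. A heavy chain folds around beta-2-microglobulin, encoded by B2m, and receives a peptide that the proteasome cut in the cytosol and that the transporter of Tap1 and Tap2 carried into the endoplasmic reticulum, where tapasin, encoded by Tapbp, holds the empty heavy chain beside the transporter. H2-K1 and H2-D1 encode the classical heavy chains, and H2-Q4, H2-Q6, H2-Q7 and H2-T23 encode non-classical ones, of which H2-T23 gives Qa-1, the ligand of the CD94/NKG2 receptors. Nlrc5 encodes the transactivator that acts with RFX, CREB/ATF and NF-Y factors at the SXY module of class I promoters. Interferons raise transcription through IRF sites of the same promoters, which can also hold NF-kappaB sites.

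Of the members, 8 lie on chromosome 17 in or beside the mouse MHC, in mm10 coordinates Tapbp at 33915899 to 33929288, H2-K1 at 33996017 to 34000333, Tap1 at 34187553 to 34197225, H2-D1 at 35262730 to 35267499, H2-Q4 at 35379617 to 35385290, H2-Q6 at 35424850 to 35430055, H2-Q7 at 35439155 to 35443773 and H2-T23 at 36029773 to 36032855. B2m lies on chromosome 2 at 122147686 to 122153083 and Nlrc5 on chromosome 8 at 94434356 to 94527272. H2-K1 and H2-T23 are on the minus strand and the other 8 on the plus strand, and all are annotated as protein coding. H2-Q6 and H2-Q7 are near-identical neighbours, with 45 of 978 aligned coding bases different (95.4% identical), so that reads can be split between them or lost. The 120 bases printed for each are coding bases 61 to 180, across exons 1 and 2, shown because this stretch differs at 14 bases, which are in capitals (GRCm38 reference). The H2-Q6 stretch spans chr17:35424937-35425223 and the H2-Q7 stretch chr17:35439281-35439567, both on the plus strand with an intron between.

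H2-Q6: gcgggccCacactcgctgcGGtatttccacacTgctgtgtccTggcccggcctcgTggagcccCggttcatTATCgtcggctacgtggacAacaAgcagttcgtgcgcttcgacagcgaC
H2-Q7: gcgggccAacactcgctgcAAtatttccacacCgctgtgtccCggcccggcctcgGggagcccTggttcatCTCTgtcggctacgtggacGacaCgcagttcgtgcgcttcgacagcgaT

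Of all 150-base windows of the reference transcript, the sequencing read length, 5.99% of those of H2-Q6 occurred exactly in H2-Q7, 11.6% of those of H2-Q7 occurred in H2-Q6 or H2-Q5, and 8.39% of those of H2-Q4 and 8.73% of those of Tapbp occurred in predicted genes. The share was 2.25% for Tap1, 1.79% for H2-D1 and 0.831% for H2-T23, and 0 for H2-K1, B2m and Nlrc5. Values of the H2-Q genes are therefore given as uncertain, and H2-Q6 and H2-Q7 are also given as a sum. Whether the counting used strand is not stated, so reads of antisense transcripts cannot be told apart from those of the members.

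RefSeq promoters (250 bases before to 50 after the start, GRCm38.p6) were available for 9 of the 10 members, the exception being Nlrc5. Both strands were searched for GGATTCCCC, the core of the enhancer A NF-kappaB site, AANNGAAA, a short interferon response core, TGACG, the core of the X2 box bound by CREB/ATF, and CCAAT, the Y box bound by NF-Y. No pair of matches overlapped in any of these promoters. GGATTCCCC was found in H2-K1, H2-D1 and H2-Q6 and in 0.283% of 32851 promoter entries, whereas AANNGAAA was found in 23.9%, TGACG in 20.8% and CCAAT in 37.4% of the entries. The promoters of the classical heavy chains, of B2m and of the H2-Q6 and H2-Q7 pair are printed with matches in capitals, because these genes carried the highest levels or the genotype differences described afterwards. They span chr17:34000284-34000583 (H2-K1, minus strand), chr17:35262844-35263143 (H2-D1, plus strand), chr2:122147437-122147736 (B2m, plus strand), chr17:35424600-35424899 (H2-Q6, plus strand) and chr17:35438905-35439204 (H2-Q7, plus strand).

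H2-K1: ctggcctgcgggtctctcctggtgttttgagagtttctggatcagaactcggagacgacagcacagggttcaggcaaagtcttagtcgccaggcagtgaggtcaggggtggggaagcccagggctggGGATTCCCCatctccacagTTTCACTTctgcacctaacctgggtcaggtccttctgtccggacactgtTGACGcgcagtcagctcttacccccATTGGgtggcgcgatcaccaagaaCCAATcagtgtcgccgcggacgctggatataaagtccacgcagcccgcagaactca
H2-D1: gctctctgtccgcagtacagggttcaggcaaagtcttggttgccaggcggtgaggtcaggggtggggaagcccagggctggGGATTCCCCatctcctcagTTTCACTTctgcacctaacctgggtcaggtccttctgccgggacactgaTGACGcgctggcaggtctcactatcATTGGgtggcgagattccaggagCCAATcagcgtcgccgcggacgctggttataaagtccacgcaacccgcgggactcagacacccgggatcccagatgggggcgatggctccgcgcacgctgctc
B2m: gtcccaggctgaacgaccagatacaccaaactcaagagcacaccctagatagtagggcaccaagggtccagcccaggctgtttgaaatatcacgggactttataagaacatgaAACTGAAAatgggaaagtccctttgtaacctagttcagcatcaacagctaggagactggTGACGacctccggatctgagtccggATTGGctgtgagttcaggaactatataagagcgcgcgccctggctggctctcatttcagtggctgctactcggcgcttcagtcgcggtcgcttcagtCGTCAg
H2-Q6: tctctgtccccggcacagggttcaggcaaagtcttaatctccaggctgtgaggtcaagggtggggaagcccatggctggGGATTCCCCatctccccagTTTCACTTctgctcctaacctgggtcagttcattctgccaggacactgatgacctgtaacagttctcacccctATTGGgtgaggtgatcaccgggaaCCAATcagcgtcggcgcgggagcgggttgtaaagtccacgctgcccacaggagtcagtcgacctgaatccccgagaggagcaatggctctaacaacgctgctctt
H2-Q7: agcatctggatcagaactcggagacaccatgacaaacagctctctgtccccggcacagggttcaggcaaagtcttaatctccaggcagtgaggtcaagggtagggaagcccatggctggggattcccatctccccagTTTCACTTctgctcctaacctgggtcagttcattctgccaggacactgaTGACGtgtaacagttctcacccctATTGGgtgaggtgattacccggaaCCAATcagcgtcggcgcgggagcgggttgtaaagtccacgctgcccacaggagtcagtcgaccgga

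CCAAT was present in all 9 promoters. AANNGAAA was present in B2m and all 6 heavy chains but not in Tap1 or Tapbp within these 300 bases. TGACG was present in H2-K1, H2-D1, H2-Q4, H2-Q7, B2m and Tap1 and not in H2-Q6, H2-T23 or Tapbp. The promoters of H2-Q6 and H2-Q7 were identical at 254 of 260 aligned bases (97.7%), and a match to GGATTCCCC was present in H2-Q6 only. A match describes the letters of the reference and no binding was measured.

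In WT cells the light chain B2m had the highest level of the 10 members in all 3 cell types, followed by H2-D1, H2-K1 and H2-T23, while Nlrc5 and H2-Q4 were at the low end. Levels between genes were compared per length, as FPKM computed from the counts and the deposited gene lengths with factors from 1 fit of all 26 libraries. In WT monocytes B2m was at 3354 ± 319.5 FPKM (SD, n = 4), H2-D1 at 1231 ± 57.4 and H2-K1 at 369 ± 9.22. H2-D1 thus lay above H2-K1 in every WT monocyte library, and H2-T23 followed at 105 ± 11.8 FPKM. Tapbp was at 67.8 ± 4.42 FPKM and Tap1 at 13.6 ± 0.325 FPKM, below the classical heavy chains they serve. H2-Q6, at 6.09 ± 0.773 FPKM, and H2-Q7, at 5.01 ± 0.622 FPKM, overlapped in range, as did Nlrc5 (0.866 ± 0.117) and H2-Q4 (0.770 ± 0.0459), and all other neighbours in the order did not overlap.

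In WT SPMs the FPKM order was B2m (18886 ± 5275, SD, n = 4), H2-D1 (7164 ± 3569.5), H2-K1 (2051 ± 1465), H2-T23 (379 ± 204), H2-Q7 (66.1 ± 54.3), Tapbp (60.4 ± 14.2), H2-Q6 (36.6 ± 25.5), Tap1 (10.5 ± 2.90), H2-Q4 (2.23 ± 1.34) and Nlrc5 (1.40 ± 1.15). The SDs were wide, and the ranges of H2-D1 and H2-K1, of H2-K1 and H2-T23, of H2-Q7 and Tapbp, of Tapbp and H2-Q6, and of H2-Q4 and Nlrc5 overlapped. In WT lung macrophages B2m was at 7775 ± 2761 FPKM (SD, n = 5), H2-D1 at 3556 ± 1059.6, H2-K1 at 1225 ± 367 and H2-T23 at 174 ± 24.5. Their ranges did not overlap, so these 4 stood in the same order as in monocytes. Further down came Tapbp (78.9 ± 10.96 FPKM), Tap1 (17.3 ± 4.16), H2-Q7 (11.7 ± 2.42), H2-Q6 (3.75 ± 1.46), H2-Q4 (3.72 ± 1.40) and Nlrc5 (1.70 ± 0.891), where Tap1 and H2-Q7 overlapped, as did each of the last 3 with its neighbour. The FPKM values depended on the scaling factors, and 19 of the 30 WT means moved by more than the SD between libraries with library totals. In WT SPMs totals gave means of 10060 FPKM for B2m, 3693 for H2-D1 and 1038 for H2-K1, in WT monocytes 4121, 1517 and 454.8, and in WT lung macrophages 10030, 4621 and 1599. The scaling does not touch the order of the genes within a library, but the gene lengths do. The deposited length was 4265 bases for H2-Q7 and 5476 for Tap1, where the reference transcripts had 1497 and 2953. For H2-Q6 both were 2085. In WT monocyte libraries H2-Q7 had 360 to 503 counts and H2-Q6 238 to 303. The order with transcript lengths was not computed, so the places of H2-Q7 and Tap1 are uncertain. The plot of WT levels shows the orders by deposited length side by side.

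**Figure D1:**
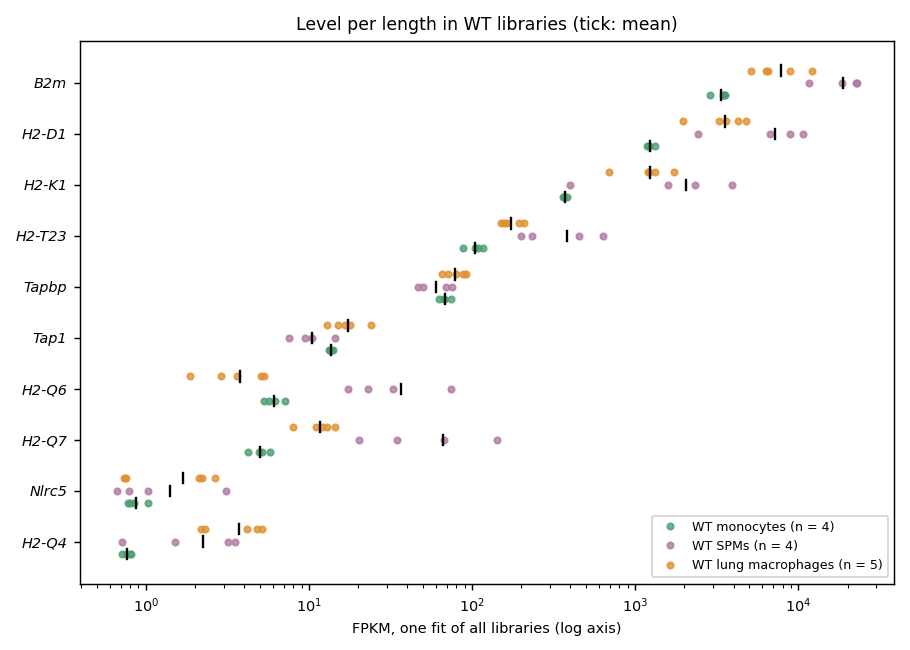
Level of each of the 10 genes in WT libraries, in FPKM on a log axis, by cell type, with 1 point per library and a tick at the mean (n = 4 monocytes, 4 SPMs, 5 lung macrophages). B2m stands highest in each cell type, and the points spread most in SPMs, where H2-K1 ran from 398 to 3896 FPKM.

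Across WT cell types, the 6 heavy chains and B2m were higher in SPMs than in monocytes, while Tap1, Tapbp and Nlrc5 did not pass the test. In the fit of all 26 libraries, calls needed an adjusted p below 0.05 and a log2 difference over 0.5 in size. On that basis 7 members were called higher and 0 lower in SPMs than in monocytes, beside 21.8% and 20.1% of the 17792 genes tested. The log2 differences were 2.47 (SE 0.43) for H2-K1, 2.54 (SE 0.35) for H2-D1, 2.49 (SE 0.36) for B2m and 3.72 (SE 0.48) for H2-Q7. H2-Q6 (2.59, SE 0.47), H2-T23 (1.86, SE 0.30) and H2-Q4 (1.55, SE 0.45) were the other 3. Tap1 differed by -0.38 (SE 0.27), Tapbp by -0.16 (SE 0.22) and Nlrc5 by 0.70 (SE 0.44), with adjusted p of 0.286, 0.602 and 0.213 in edgeR (quasi-likelihood test, Benjamini-Hochberg). The cell types were tabulated separately, and the lung table carries summary lines of another counting tool, so cell type, table and counting cannot be told apart in any of these comparisons. Fewer cells of a type and less RNA per cell cannot be told apart in bulk libraries either.

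In WT lung macrophages 7 members were called higher than in WT monocytes and 0 lower, beside 39.5% and 24.4% of all genes. They were H2-Q4 (2.27, SE 0.44), H2-K1 (1.73, SE 0.41), H2-D1 (1.53, SE 0.33), H2-Q7 (1.22, SE 0.42), B2m (1.21, SE 0.33), Nlrc5 (0.97, SE 0.42) and H2-T23 (0.74, SE 0.28), as log2 differences. H2-Q6 stood at -0.70 (SE 0.42), Tap1 at 0.35 (SE 0.26) and Tapbp at 0.22 (SE 0.21), none of which passed the test. The median of the members was 1.09 on the log2 scale and that of all genes 0.34. Against WT SPMs, lung macrophages had 5 members called lower and 1 higher, beside 23.2% and 39.1% of all genes. H2-Q6 (-3.29, SE 0.44), H2-Q7 (-2.50, SE 0.42), B2m (-1.28, SE 0.32), H2-T23 (-1.12, SE 0.27) and H2-D1 (-1.01, SE 0.31) were the lower ones and Tap1 (0.72, SE 0.26) the higher one. Several of these calls rested on single libraries. That of Nlrc5 against monocytes was lost without any 1 of the 4 WT monocyte libraries, without WT lung replicate 2, 4 or 5 and without ACKR2-/- lung replicate 4, at adjusted p of 0.0525 to 0.124 in edgeR (quasi-likelihood test, Benjamini-Hochberg). That of H2-T23 against monocytes was lost without WT monocyte replicate 2 (0.0707), that of H2-D1 against SPMs without WT SPM replicate 2 (0.0541), and that of Tap1 against SPMs without WT SPM replicate 3 (0.0678) or the lung library labelled WT replicate 5 (0.0570). Without WT SPM replicate 1, H2-K1 (-1.09) was called lower and H2-Q4 (1.03) and Nlrc5 (1.03) higher in lung macrophages than in SPMs. Without the lung library labelled WT replicate 3 the counts of members called were 7 and 6, as with it.

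These differences depended on how the libraries were scaled, because the TMM factors of SPMs were 0.49 to 0.73 and those of the other cell types 1.14 to 1.54. Scaling by library totals moved the median log2 difference of all genes by -0.96 for SPMs against monocytes, by 0.09 for lung macrophages against monocytes and by 1.21 for lung macrophages against SPMs. With totals, 6 members were still called higher in SPMs than in monocytes, beside 9.08% of all genes, H2-Q4 (0.48) was not, and Tap1 (-1.52) and Tapbp (-1.34) were called lower, beside 46.9%. For lung macrophages against monocytes, 6 members were called higher and 0 lower with totals, beside 40.1% and 22% of all genes, and Nlrc5 (1.07) was not called. For lung macrophages against SPMs, 4 members were called higher and 2 lower with totals, beside 66.4% and 9.47% of all genes, and H2-K1 (0.62), H2-D1 (0.32) and H2-T23 (0.19) changed sign, while B2m stood at 0.00. H2-Q6 (-1.97) and H2-Q7 (-1.15) were called lower in lung macrophages than in SPMs with either scaling, and Tap1 (1.95) higher.

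Ratios of members within a library need no scaling factor. The log2 ratio of Tap1 to B2m per length was -7.94 ± 0.14 (SD, n = 4) in WT monocytes, -8.77 ± 0.18 (n = 5) in WT lung macrophages and -10.81 ± 0.55 (n = 4) in WT SPMs, and the 3 ranges did not overlap. The difference was -2.87 between SPMs and monocytes (two-sided exact permutation p = 0.0286, the smallest that 4 against 4 allows, 0.0643 adjusted over 9 ratio tests). Between lung macrophages and monocytes it was -0.83 (exact p = 0.00794, adjusted 0.0238), and between lung macrophages and SPMs 2.03 (exact p = 0.00794, adjusted 0.0238). The value 0.00794 is the smallest that 4 against 5 allows, so these p-values differ through group size and do not rank the 3 differences. SPMs thus carried the least transporter RNA for their light chain RNA. The ratio of H2-K1 to B2m was -2.66 ± 0.28 in lung macrophages and -3.18 ± 0.13 in monocytes (exact p = 0.00794, adjusted 0.0238). The other 5 ratio tests, of H2-K1 or H2-D1 to B2m, gave adjusted exact p of 0.0952 to 0.857.

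In monocytes H2-Q6 rose in ACKR2-/- libraries, at the edge of the threshold, and its neighbour H2-Q7 lay higher without passing it. The mean differences of the classical heavy chains and B2m were smaller than the SD of the ACKR2-/- libraries but larger than that of the WT libraries. H2-Q6 was at 15.5, 18.8, 16.5 and 14.04 CPM in WT replicates 1 to 4 and at 35.3, 25.7, 22.7 and 24.6 CPM in ACKR2-/- replicates 1 to 4. All 4 ACKR2-/- libraries lay above all 4 WT libraries, and the log2 fold change (ACKR2-/- against WT) was 0.74 (SE 0.16) with an adjusted p of 0.0495 in edgeR (quasi-likelihood test, Benjamini-Hochberg). H2-Q6 was the 1 member called up, with 0 called down, beside 0.913% and 0.355% of the 13246 genes tested. Its call sat at the threshold, and it was lost with a filter at 1 CPM (adjusted p = 0.0528) and without any 1 of the 4 WT libraries or of ACKR2-/- replicates 1, 2 and 4, where the adjusted p was 0.0558 to 0.168. Without ACKR2-/- replicate 3 the adjusted p was 0.0262, and DESeq2 gave 0.00409.

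H2-Q7 was at 23.4, 31.0, 28.0 and 26.7 CPM in WT and 40.7, 32.0, 35.8 and 41.9 CPM in ACKR2-/- replicates, with a log2 fold change of 0.46 (SE 0.13) and an adjusted p of 0.111 in edgeR (quasi-likelihood test, Benjamini-Hochberg). These groups did not overlap either, so 2 members had all ACKR2-/- libraries above all WT libraries and 0 below, beside 4.94% and 5.25% of all genes. Summed over the near-identical pair, the WT mean was 43.5 ± 4.83 CPM and the ACKR2-/- mean 64.7 ± 8.52 CPM (SD, n = 4 each), a log2 fold change of 0.57 (SE 0.13) with an adjusted p of 0.0570 in edgeR (quasi-likelihood test, Benjamini-Hochberg). The pair therefore missed the threshold when it was counted as 1 feature. H2-Q6 made up 37.3% ± 2.20 of the counts of the pair in WT and 41.7% ± 4.51 in ACKR2-/- libraries (n = 4 each, two-sided exact permutation p = 0.2, adjusted over 3 cell types 0.3).

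Nlrc5, the transactivator of class I genes, was at 9.31, 8.64, 11.3 and 8.39 CPM in WT and 17.9, 10.9, 11.4 and 18.4 CPM in ACKR2-/- replicates. Replicates 1 and 4 of the ACKR2-/- group stood above all WT libraries and replicates 2 and 3 were close to the highest WT library, giving 0.64 (SE 0.20) on the log2 scale with an adjusted p of 0.150 in edgeR (quasi-likelihood test, Benjamini-Hochberg). H2-T23 was at 411, 324, 431 and 380.3 CPM in WT and 225, 219, 356 and 331 CPM in ACKR2-/- replicates, and its log2 fold change was -0.45 (SE 0.18) with an adjusted p of 0.233. The groups of H2-T23 overlapped, and it was the single member with an unadjusted p under 0.05 in the lower direction, beside 8.17% of all genes. H2-Q6, H2-Q7 and Nlrc5 were the 3 members with one in the higher direction, beside 8.83% of all genes.

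The abundant members showed no call. H2-K1 was at 1239, 1200.5, 1279.8 and 1205 CPM in WT and 900.4, 1160.3, 1315 and 1169.9 CPM in ACKR2-/- replicates, and its log2 fold change was -0.12 (SE 0.15). H2-D1 ran over 3945 to 4350.0 CPM in WT and 2806 to 4682 CPM in ACKR2-/- libraries, and B2m over 3223 to 3915 and 2214 to 4416 CPM. For both the ACKR2-/- range reached below and above that of WT, and the log2 fold changes were -0.12 (SE 0.19) and -0.22 (SE 0.22). Tap1 (0.06, SE 0.12), Tapbp (-0.08, SE 0.15) and H2-Q4 (-0.02, SE 0.23) were the nearest to 0. The median over the 10 members was -0.05 and that over all genes 0.00.

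T cell markers moved with genotype in the same libraries. Of 10 T cell marker genes, 9 were called up, and their summed level was 3.78 to 5.53 CPM in WT and 68.0 to 125 CPM in ACKR2-/- monocyte libraries. Cd3e, part of the T cell receptor complex, was at 0 to 0.187 CPM in WT libraries and at 3.39 ± 1.52 CPM (SD, n = 4) in ACKR2-/- libraries. The sum was 99.0, 68.0, 98.4 and 125 CPM in ACKR2-/- replicates 1 to 4. H2-Q7 and Nlrc5 stood in the same order as this sum over these 4 libraries, and H2-Q6 did not. The sums of replicates 1 and 3 were nearly tied, so this order rests on little. ACKR2-/- replicate 1 also had the lowest sum of monocyte markers (5010 CPM, others 6958 to 9569) and the highest of erythroid markers (1256 CPM, others 70.6 to 507). Neutrophil markers, a list that includes genes monocytes also express, summed to 50757 to 112969 CPM in WT and 20114 to 75583 CPM in ACKR2-/- libraries. Of 7 dendritic cell markers tested 2 were called up, and the list summed to 55.2 to 79.2 CPM in WT libraries. In ACKR2-/- replicates 1 to 4 it summed to 175, 67.5, 113 and 103 CPM. Replicate 1 was the highest for this list and for H2-Q6, but H2-Q6 did not follow the order of the list over the other replicates. Eosinophil markers summed to 112 to 142 CPM in WT and 82.7 to 107 CPM in ACKR2-/- libraries, and the alveolar macrophage list to 7570 to 9232 CPM and 4973 to 6657 CPM, without overlap in either case. Both lists contain Ear1 and Siglecf. The alveolar macrophage list was lower in the lung libraries (1077 to 2293 CPM), so it is no measure of alveolar macrophages here. The part of the cells of these lists in the H2-Q6, H2-Q7 and Nlrc5 values was not tested.

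**Figure D2:**
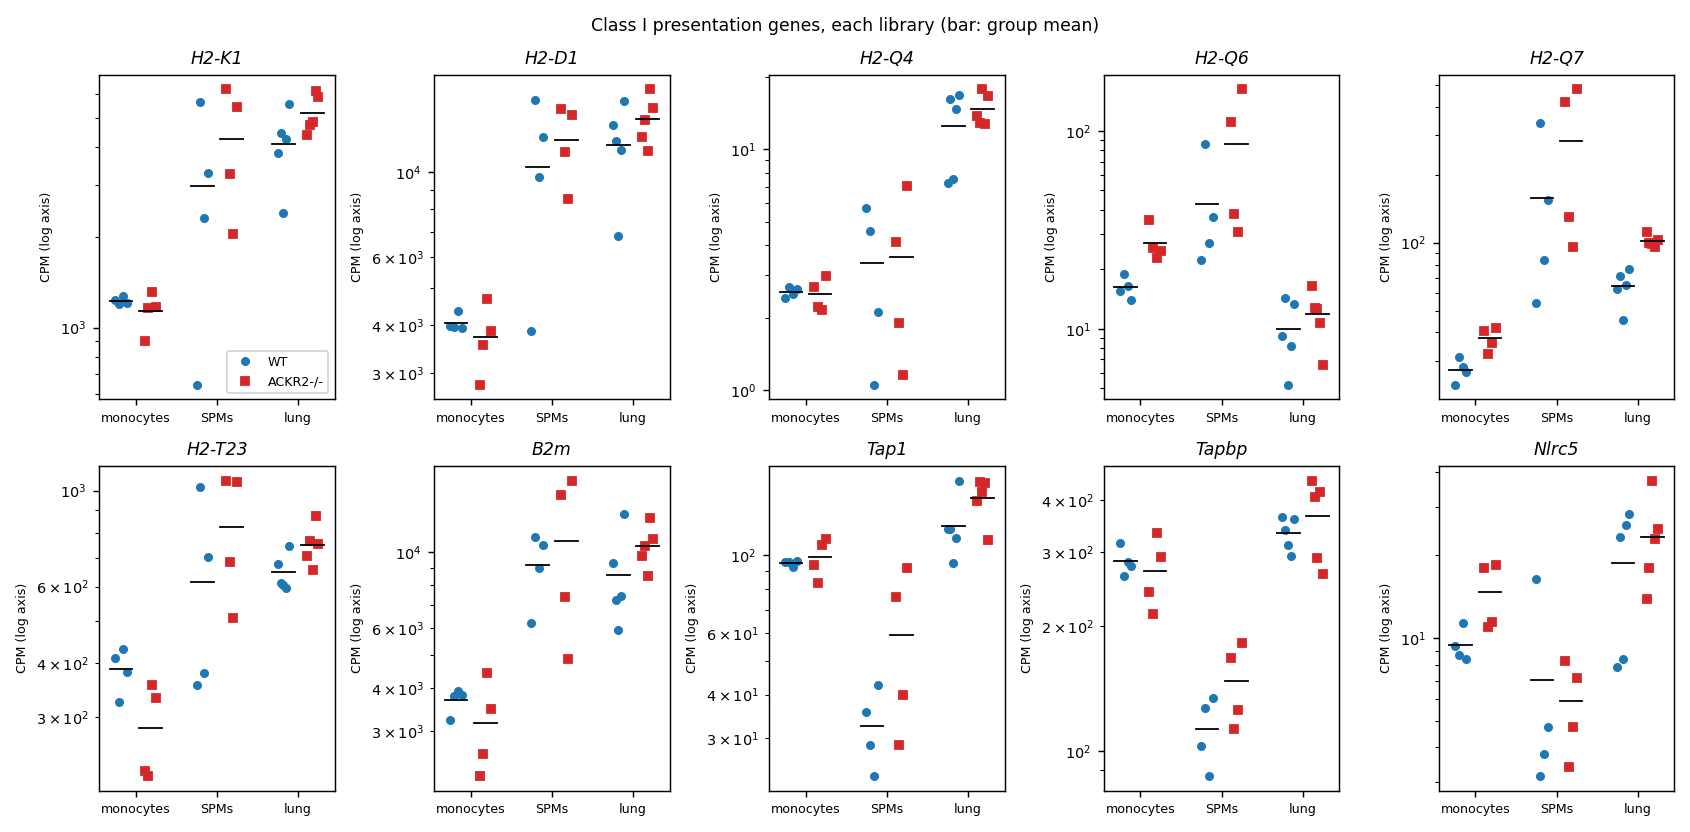
Level of each of the 10 genes in every library, in CPM (TMM-scaled within a cell type) on a log axis, by cell type and genotype, with 1 point per library and a bar at the mean. H2-Q6 and H2-Q7 in monocytes and H2-Q7 in lung macrophages are the cases where all ACKR2-/- points lie above all WT points.

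In SPMs no member was called, and the members' spread between libraries of 1 genotype was wider than in the other cell types. H2-K1 was at 645, 5664, 2328 and 3272 CPM in WT replicates 1 to 4 and 6241, 3265, 2057 and 5443 CPM in ACKR2-/- replicates 1 to 4. WT replicate 1 was far below the rest and WT replicates 2, 3 and 4 lay within the ACKR2-/- range, so the groups overlapped. The log2 fold change was 0.51 (SE 0.55) with an adjusted p of 0.839 in edgeR (quasi-likelihood test, Benjamini-Hochberg). The ratio of the highest to the lowest library had a median over the members of 3.91 in WT SPMs, where that of all genes was 2.34, and of 3.12 in ACKR2-/- SPMs, where that of all genes was 1.45. In monocytes it was 1.21 in WT and 1.56 in ACKR2-/- libraries, and in lung macrophages 2.22 and 1.45.

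The members called were 0 up and 0 down, beside 0.0308% and 0.0154% of the 12997 genes tested, and DESeq2 also called 0. Taking p below 0.05 without adjustment, 1 member was higher and 0 lower, beside 2.93% and 2.52% of all genes, and 0 members had groups without overlap, beside 1.8% of all genes above and 1.6% below. The 1 member was Tap1, at 35.6, 28.8, 23.4 and 42.5 CPM in WT and 75.8, 28.8, 39.8 and 92.2 CPM in ACKR2-/- replicates. ACKR2-/- replicates 1 and 4 lay above all WT libraries and the other 2 within their range, giving 0.86 (SE 0.36) on the log2 scale (unadjusted p = 0.0343, adjusted p = 0.788 in edgeR (quasi-likelihood test, Benjamini-Hochberg)).

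H2-Q7 was at 53.9, 338, 83.9 and 155 CPM in WT and 422, 129.9, 95.8 and 479 CPM in ACKR2-/- SPMs, and H2-Q6 at 22.3, 85.7, 27.1 and 36.6 and 111, 37.8, 31.0 and 162 CPM. Both genes had the same libraries at the top, WT replicate 2 and ACKR2-/- replicates 1 and 4. Their log2 fold changes were 0.84 (SE 0.63) and 0.99 (SE 0.57), with an adjusted p of 0.788 for both in edgeR (quasi-likelihood test, Benjamini-Hochberg). H2-Q6 made up 23.3% of the counts of the pair in either genotype (exact permutation p = 0.971). H2-D1 (3868 to 15372 CPM in WT, 8502 to 14544 CPM in ACKR2-/-), B2m (6205 to 11015 and 4861 to 16149 CPM) and H2-T23 (356 to 1021 and 508 to 1055 CPM) overlapped broadly. Their log2 fold changes were 0.23 (SE 0.38), 0.23 (SE 0.38) and 0.42 (SE 0.37). Tapbp was at 0.38 (SE 0.22) and H2-Q4 at 0.07 (SE 0.60). The fold changes of 9 of the 10 members were above 0, with a median of 0.40 against -0.05 over all genes, but without replicate 1 of WT that of H2-D1 was -0.04.

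Nlrc5 was the 1 member with a fold change below 0 in SPMs, -0.26 (SE 0.51) on the log2 scale. Its values were 16.4, 3.15, 3.78 and 4.73 CPM in WT and 8.24, 3.41, 4.74 and 7.14 CPM in ACKR2-/- replicates, so WT replicate 1 was the highest of all 8 libraries for Nlrc5 while it was the lowest for 5 other members. Without it the log2 fold change was 0.59. ACKR2-/- replicate 4 was the highest library for 6 of the 10 members and among the highest 3 for all 10, and ACKR2-/- replicate 1 among the highest 3 for 9. The same libraries had the highest sums of large peritoneal macrophage markers, 1958 CPM in ACKR2-/- replicate 4 and 1748 CPM in replicate 1, where the ACKR2-/- range was 955 to 1958 CPM and that of WT 322 to 1123 CPM. WT replicate 1 had the lowest sum of macrophage markers (81113 CPM) and the highest of monocyte markers (2830.0 CPM). The part of these cells in the SPM values was not tested.

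In lung macrophages the fold changes of all 10 members were above 0, but none was called, and H2-Q7 was the member whose groups did not overlap. H2-Q7 was at 62.5, 71.5, 45.4, 64.7 and 76.5 CPM in WT replicates 1 to 5 and 112, 99.7, 98.3, 95.9 and 102 CPM in ACKR2-/- replicates 1 to 5. Every ACKR2-/- library lay above every WT library, and the log2 fold change was 0.66 (SE 0.16) with an unadjusted p of 0.00127 and an adjusted p of 0.9999 in edgeR (quasi-likelihood test, Benjamini-Hochberg). DESeq2 gave an adjusted p of 0.0762 for it. Leaving out both libraries labelled WT replicate 3 and WT replicate 5 was chosen after seeing the data. Without them the log2 fold change of H2-Q7 was 0.66 (adjusted p = 0.9999 in edgeR), and those of the other 9 members were 0.18 to 0.43. Without any 1 library all 10 stayed above 0, but the lowest values were 0.05 for Tapbp, 0.088 for H2-Q6 and for Nlrc5 and 0.58 for H2-Q7.

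Of the 16824 genes tested in the lung 0% were called up and 0% down, so the members' counts of 0 and 0 are those of the whole table, and DESeq2 called 21 genes and 0 members. Taking p below 0.05 without adjustment, 1 member was higher and 0 lower, beside 1.24% and 1.72% of all genes. H2-Q7 was 1 member with all ACKR2-/- libraries above all WT libraries, beside 0.22% of all genes, and 0 were below, beside 0.226%. H2-Q6, its near-identical neighbour, was at 9.16, 14.3, 5.22, 8.23 and 13.3 CPM in WT and 16.5, 12.8, 12.6, 10.7 and 6.54 CPM in ACKR2-/- libraries, and the groups overlapped. Its log2 fold change was 0.24 (SE 0.32), and its share of the counts of the pair was 13.2% ± 2.58 in WT and 10.3% ± 2.61 in ACKR2-/- libraries (n = 5 each, exact permutation p = 0.135, adjusted 0.3). Summed over the pair the log2 fold change was 0.61 (SE 0.17), with an unadjusted p of 0.00340 and an adjusted p of 0.9999 in edgeR (quasi-likelihood test, Benjamini-Hochberg).

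H2-K1 was at 3817, 4445, 2415, 4266 and 5589 CPM in WT and 4383, 4746, 4872, 6171 and 5904 CPM in ACKR2-/- lung libraries. The library labelled WT replicate 3 was below all others and the remaining 9 overlapped, and the log2 fold change was 0.34 (SE 0.23) with an adjusted p of 0.9999 in edgeR (quasi-likelihood test, Benjamini-Hochberg). The same library was the lowest for 6 of the 10 members and among the lowest 2 for 9, although it had the highest level of MHC class II genes. H2-D1 was at 0.22 (SE 0.23), B2m at 0.28 (SE 0.24), H2-T23 at 0.21 (SE 0.14) and H2-Q4 at 0.24 (SE 0.28) on the log2 scale. Tap1 (0.26, SE 0.17), Tapbp (0.13, SE 0.18) and Nlrc5 (0.32, SE 0.40) were of like size against their errors. The median over the members was 0.25 and that over all genes -0.04. NK cell markers summed to 227 to 526 CPM in WT and 449 to 2803 CPM in ACKR2-/- lung libraries, and B cell markers reached 4316 CPM in the library labelled WT replicate 3 against 611 to 1626 CPM in the others. The part of these cells in the lung values was not tested.

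**Figure D3:**
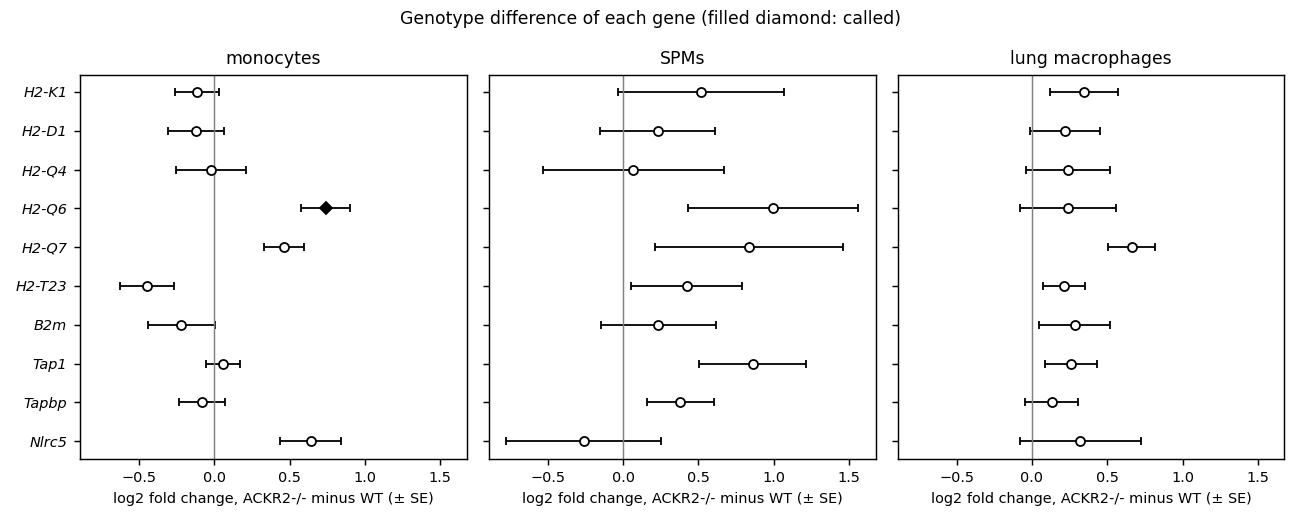
Log2 fold change of each of the 10 genes (ACKR2-/- against WT) with its SE as the bar, in 1 panel per cell type, where a filled diamond marks a called gene. H2-Q6 in monocytes (0.74) is the only filled diamond, and the bars are widest in SPMs.

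Whether the genotype effect differed between cell types was tested as an interaction over all 26 libraries, called at an adjusted p under 0.05. No member was called in any of the 3 tests, beside 0.253% of all genes for SPMs against monocytes, 0.152% for lung macrophages against monocytes and 0.0393% for lung macrophages against SPMs. The smallest adjusted p among the members was 0.614, for Tap1 in SPMs against monocytes, where the effects differed by 0.88 (SE 0.38) on the log2 scale. H2-T23, the member with an unadjusted p under 0.05 in the lower direction in monocytes, differed by 0.93 (SE 0.41) in the same test with an unadjusted p of 0.0308 and an adjusted p of 0.634 in edgeR (quasi-likelihood test, Benjamini-Hochberg). At an unadjusted p under 0.05 these 2 passed in SPMs against monocytes, beside 7.46% of all genes, and 0 passed in lung macrophages against monocytes or against SPMs, beside 6.07% and 6.15%. DESeq2 called 0 members in each of the 3 tests. For H2-Q7, the member with separate groups in monocytes and in lung macrophages, the effects differed by 0.23 (SE 0.58).

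After the mean of each cell type and genotype was removed, members varied together across the 26 libraries to different degrees, which is a description, since libraries share depth and composition of the sorted cells. Pearson's r was 0.951 for H2-K1 and H2-D1, 0.892 for H2-Q6 and H2-Q7, 0.863 for H2-K1 and H2-Q7 and 0.834 for H2-K1 and H2-T23. For Nlrc5 r was 0.62 with H2-Q4, 0.41 with Tap1, 0.09 with H2-Q6, 0.02 with B2m, -0.21 with H2-K1 and -0.28 with H2-D1. Among WT SPMs, replicate 1 was the highest library for Nlrc5 (16.4 CPM, others 3.15 to 4.73) and the lowest for H2-K1 (645 CPM, others 2328 to 5664). How far r of Nlrc5 with the heavy chains rests on that library was not tested. The 5 genes whose residual pattern was most like that of H2-K1 were H2-D1 (0.951), Arf6 (0.890), H2-Q5 (0.881), Ms4a4a (0.878) and H2-T-ps (0.868). For Nlrc5 they were Ascc3 (0.913), Fnbp4 (0.910), Phf20l1 (0.907), Zfp638 (0.902) and Tcirg1 (0.896), none of them a class I gene. The plot of deviations by library shows H2-K1 and H2-D1 rising and falling together in SPMs.

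**Figure D4:**
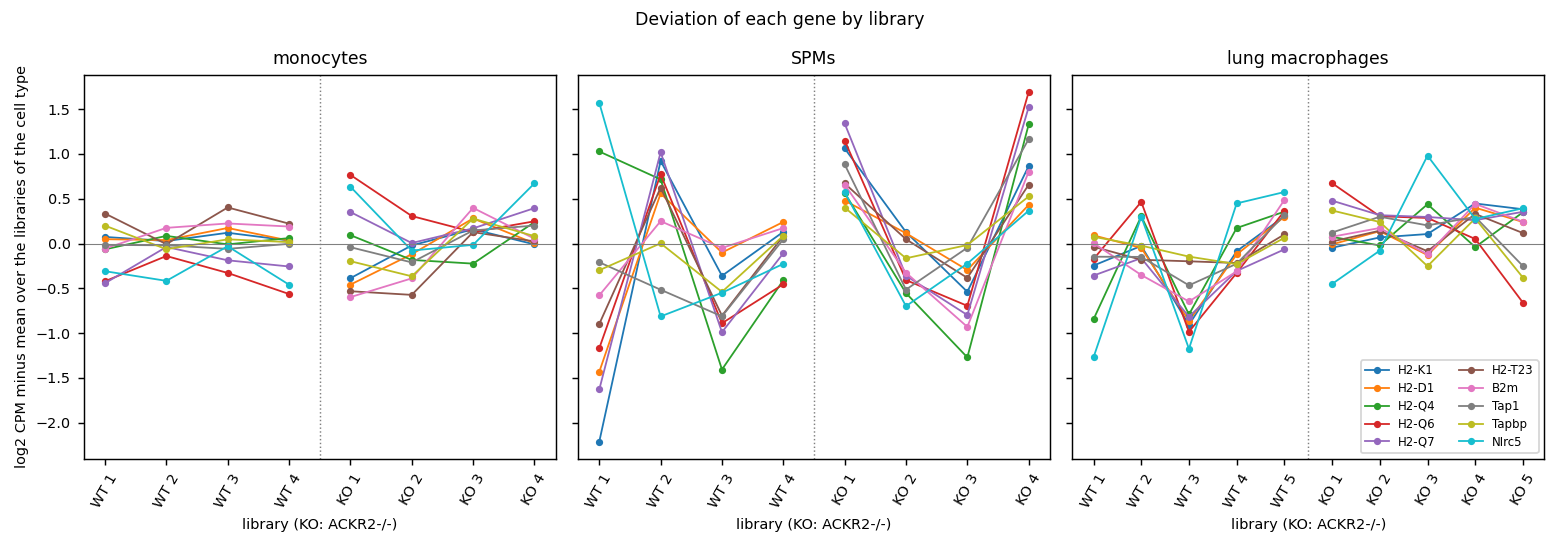
Deviation of each gene from its cell type mean in every library (log2 CPM), in 1 panel per cell type, with libraries on the x axis, 1 line per gene and KO for ACKR2-/-. In SPMs WT replicate 1 is the lowest library for 5 of the 10 genes and high for Nlrc5, and in the lung the library labelled WT replicate 3 is the lowest for 6.

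The rest of the pathway was read from 5 lists, and no gene of any list was called in any of the 3 genotype comparisons. Of 21 other class I and class I-like heavy chains 18 were found, and 11, 13 and 14 passed the filter in monocytes, SPMs and lung macrophages. Their median log2 fold changes were 0.13, 0.36 and 0.17, where those of all genes were 0.00, -0.05 and -0.04. H2-Q5, of which part cannot be told from H2-Q7, was at 0.41 (SE 0.20) in monocytes, 0.78 (SE 0.57) in SPMs and 0.16 (SE 0.27) in the lung. H2-T22, a ligand of some gamma delta T cells, was at 0.29 (SE 0.15), 0.95 (SE 0.36) and 0.33 (SE 0.16), and H2-M3, which presents formylated peptides, at 0.12 (SE 0.14), 0.51 (SE 0.30) and -0.04 (SE 0.19). H2-T10 (0.59, SE 0.23), H2-T24 (-0.41, SE 0.18) and Cd1d1 (0.40, SE 0.14), the lipid-presenting chain, had adjusted p of 0.218, 0.277 and 0.175 in monocytes in edgeR (quasi-likelihood test, Benjamini-Hochberg). In the lung H2-M2 ran over 0.201 to 226 CPM in WT and 0.0402 to 4.88 CPM in ACKR2-/- libraries, and the 226 CPM belonged to the library labelled WT replicate 3. H2-Q1, H2-Q2, H2-Q10, H2-K2, Mr1, Hfe and Fcgrt did not pass either where they were tested, and H2-T3, H2-M5, H2-Bl and Cd1d2 stayed under the filter in all 3 tables.

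For peptide supply and loading all 16 listed genes were found and tested, with medians of -0.07 in monocytes, 0.27 in SPMs and 0.22 in the lung. Calr, the chaperone calreticulin, was at 453 to 603 CPM in WT and 306 to 394 CPM in ACKR2-/- libraries in monocytes, with -0.56 (SE 0.14) on the log2 scale and an adjusted p of 0.0814 in edgeR (quasi-likelihood test, Benjamini-Hochberg). Its monocyte groups did not overlap, in the opposite direction to H2-Q6, and Psme2, a proteasome activator subunit, was at 0.34 (SE 0.13). In SPMs Tapbpl, another peptide editor, was at 0.83 (SE 0.34) and Tap2, the partner of Tap1, at 0.72 (SE 0.32). In the lung Psme1 was at 255 to 354 CPM in WT and 356 to 469.6 CPM in ACKR2-/- libraries, groups that did not overlap, with 0.47 (SE 0.15) and an adjusted p of 0.9999, and Hspa5, an endoplasmic reticulum chaperone, was at -0.39 (SE 0.18).

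Of 15 genes for transcription of class I genes, 14, 15 and 15 were tested, and their medians were -0.11, 0.01 and 0.04. Irf8, an interferon regulatory factor of myeloid cells, was the gene with the smallest p in SPMs and in the lung. It was at 6.24 to 11.2 CPM in WT and 11.2 to 47.2 CPM in ACKR2-/- libraries in SPMs (1.74, SE 0.47, adjusted p 0.788 in edgeR (quasi-likelihood test, Benjamini-Hochberg)) and at 183 to 315 CPM in WT and 266 to 587 CPM in ACKR2-/- libraries in the lung (0.69, SE 0.25, adjusted p 0.9999). The SPM groups of Irf8 did not overlap and those of the lung did. In monocytes Rela, an NF-kappaB subunit, was at -0.40 (SE 0.16) and Irf8 at 0.29 (SE 0.14), in SPMs Irf1 was at 1.02 (SE 0.44), and in the lung Rfxank, an RFX subunit, was at 0.16 (SE 0.16).

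Interferon receptors and response genes (20 found, 19, 20 and 20 tested) had medians of -0.26, 0.88 and -0.08. The SPM values were uneven between libraries, since Iigp1, an interferon-induced GTPase, was at 0.383 to 4.21 CPM in WT and 0.880 to 84.6 CPM in ACKR2-/- libraries and Irf7 at 13.4 to 30.1 CPM in WT and 19.3 to 258 CPM in ACKR2-/- libraries. Their log2 fold changes were 4.49 (SE 1.27) and 2.15 (SE 0.71), with adjusted p of 0.788 for both in edgeR (quasi-likelihood test, Benjamini-Hochberg). In monocytes Ifit2 was at -0.61 (SE 0.18) and Gbp5 at -0.92 (SE 0.29), and in the lung Ifnar1 was at -0.32 (SE 0.16) and Ifit2 at -0.61 (SE 0.45). All 10 MHC class II genes were tested in each cell type, with medians of 0.13, -0.12 and -1.65. H2-Oa was at 1.20 (SE 0.28) in monocytes with an adjusted p of 0.0660, and H2-Eb1 at -0.42 (SE 0.14), -0.24 (SE 0.24) and -2.69 (SE 1.16) in monocytes, SPMs and the lung. Ciita, the class II transactivator, was at -0.32 (SE 0.30) in SPMs and -2.40 (SE 0.86) in the lung, where the library labelled WT replicate 3 held most of the class II RNA.

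Between WT cell types, the number of supply genes called depended on the scaling. The counts of each list stand against the shares of all genes called higher and lower, which in SPMs against monocytes were 21.8% and 20.1% (9.08% and 46.9% with totals) and in lung macrophages against monocytes 39.5% and 24.4% (40.1% and 22% with totals). Of the 16 peptide supply and loading genes, 7 were called higher and 2 lower in SPMs than in monocytes, but with library totals 0 were higher and 9 lower, and Psme1, Psme2, Pomp and Sec61b changed sign. In lung macrophages against monocytes 2 were higher and 7 lower (5 and 7 with totals), with Tap2 at 1.67 (SE 0.24) and Sec61b, a translocon subunit, at -2.05 (SE 0.23) on the log2 scale. Tap2 was also higher in lung macrophages than in SPMs, by 2.03 (SE 0.24), the direction of Tap1. Of the 15 other class I heavy chains in the fit, 8 were higher and 0 lower in SPMs than in monocytes (6 and 1 with totals), and 10 higher and 1 lower in lung macrophages than in monocytes (11 and 1 with totals). H2-Q10 (4.60, SE 0.58 and 4.62, SE 0.56) and Hfe, an iron regulator (3.12, SE 0.33 and 3.34, SE 0.33), were higher in both. H2-K2, a class I pseudogene, was lower in lung macrophages than in monocytes, with a log2 difference of -2.76 (SE 0.40).

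Among the transcription genes Irf8 was lower in SPMs than in monocytes, with a log2 difference of -4.46 (SE 0.41), and higher in lung macrophages than in SPMs by 3.72 (SE 0.39). Irf1 was higher in lung macrophages than in monocytes by 2.51 (SE 0.38). Of the 15, 3 were higher and 6 lower in SPMs than in monocytes (1 and 13 with totals), and 7 higher and 2 lower in lung macrophages than in monocytes with either scaling. Of the 20 interferon genes, 5 were higher and 5 lower in SPMs than in monocytes (0 and 12 with totals), and 5 higher and 6 lower in lung macrophages than in monocytes with either scaling. All 10 MHC class II genes were higher in SPMs than in monocytes with either scaling, Cd74, the invariant chain, by 8.17 (SE 0.76).

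Against SPMs, lung macrophages had 4 of the 15 other heavy chains called higher and 2 lower (11 and 2 with totals), 5 of the 16 supply genes higher and 8 lower (8 and 3), 7 of the 15 transcription genes higher and 1 lower (15 and 0), 5 of the 20 interferon genes higher and 4 lower (12 and 2), and 0 of the 10 MHC class II genes higher and 8 lower (1 and 7). Of all genes 39.1% were called higher and 23.2% lower in that comparison (66.4% and 9.47% with totals). Of the class II genes 9 were higher in lung macrophages than in monocytes with either scaling, with the library labelled WT replicate 3 included. H2-Q5 was higher in lung macrophages than in monocytes by 3.77 (SE 0.48) and than in SPMs by 1.44 (SE 0.43), and Mr1, which presents vitamin B metabolites, by 2.11 (SE 0.40) and 1.06 (SE 0.38). Psmb10, an immunoproteasome subunit, was lower in lung macrophages than in monocytes (-0.83, SE 0.24) and SPMs (-1.75, SE 0.24). With totals the differences were -0.75 and -0.45, and that against SPMs was not called. Psmb8, another immunoproteasome subunit, was called higher in SPMs than in monocytes by 1.70 (SE 0.28), which with totals was 0.47 and not called. Nfya, an NF-Y subunit, was higher in SPMs (2.33, SE 0.44) and lung macrophages (2.84, SE 0.43) than in monocytes, while Nfyb was lower in both (-0.98, SE 0.19 and -1.29, SE 0.18). The interferon receptor chains went apart in lung macrophages against monocytes, with Ifnar1 at 1.33 (SE 0.20) and Ifnar2 at -1.91 (SE 0.23).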

How the data were processed

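RNA of FACS-sorted bone marrow monocytes, SPMs and MHCII negative lung macrophages from WT and ACKR2-/- mice was sequenced by the authors as paired reads of 150 bases from low-input poly-A libraries. The authors deposited 1 table of raw read counts per gene for each cell type, and the submitters' processing notes name HISAT2 2.0.5, featureCounts 1.5.0-p3, DESeq2 and the build mm10. The monocyte and SPM tables also hold gene names, coordinates and gene lengths. The deposited lung counts end with 5 summary lines of a kind that featureCounts does not write, of which reads in no feature were 45.1 to 48.9% of a library (median 46.7%). Library sizes and tests excluded these lines, and no source used here names the counting tool of the lung table.

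Samples were grouped by GEO's labels. Each cell type was fitted separately with edgeR 4.0.16 (R 4.3.3, limma 3.58.1), using filterByExpr (minimum count 10, minimum total 15), TMM factors and the quasi-likelihood test of ACKR2-/- against WT. A gene was called at a Benjamini-Hochberg adjusted p under 0.05 over all genes tested and a log2 fold change over 0.5 in size. WT cell types and interactions were tested in 1 fit of all 26 libraries on 50104 shared gene identifiers. FPKM used the gene lengths of the monocyte table. The paper states that its groups held biological replicates and gives the pooling, but the labels do not name the animals of each library. The p-values therefore measure the spread between these libraries, and the total counts limit the precision of low genes. No pair of replicates agreed within sampling noise. Same-numbered WT and ACKR2-/- libraries did not deviate together in every pair of any cell type, so the numbers were not used as pairs.

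The 10 genes and the lists were chosen with earlier results of these data known. Named were all 10 genes, all other heavy chains found, for the other 4 lists the genes with the smallest p in each comparison, and the 5 genes most correlated with H2-K1 and with Nlrc5. Coding bases stand in for proteins, which were not used here. The fitting steps were tested on simulated data. Alternatives were DESeq2 1.42.0, RLE factors, library totals, a filter at 1 CPM, no filter, a robust fit, a replicate block, summed H2-Q genes and leaving out each library. Sequences came from RefSeq tables of GRCm38.p6 and reference transcripts, and were aligned with Biopython 1.88.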

Additional observations from a re-analysis of the deposited data

Results flagged for a closer look

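Of 60 groups of member values, 2 had a library far from the others by Dixon's test, where chance flags about 1 in 20 groups. H2-D1 in WT monocytes was at 4350.0 CPM in replicate 3 and at 3945 to 3988 CPM in the other 3 libraries, a gap of 0.895 of the whole range. Nlrc5 in WT SPMs was at 16.4 CPM in replicate 1 and at 3.15 to 4.73 CPM in the other 3, a gap of 0.881 of the range.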

How the results depend on the processing

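Of 450 alternative fits of the members' genotype fold changes, 427 kept their direction and side of the threshold, 9 lost the call, all for H2-Q6 in monocytes, and 14 changed sign, all for values that were not called. Of 900 for WT cell type differences, 869 kept both, 15 lost and 9 gained a call and 7 changed sign. The cause of each change was not tested.

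The 168 genes called in monocytes became 540 with DESeq2, 346 with no filter and 76 to 413 without 1 library, the 6 in SPMs 30, 52 and 3 to 8, and the 0 in the lung 21 with DESeq2. The 1 member called in monocytes became 0 with the filter at 1 CPM, the replicate block, all H2-Q genes summed, H2-Q6 and H2-Q7 summed (chosen after seeing the data, as was leaving out both lung libraries labelled WT 3 and WT 5), and 0 to 1 without 1 library. Same-numbered libraries correlated at -0.13 to 0.40 in monocytes, -0.14 to -0.02 in SPMs and -0.10 to 0.70 in the lung. The highest were replicate 1 in the lung (0.70) and replicate 2 in monocytes (0.40), and the labels do not say what a number stands for. With the replicate block H2-Q6 in monocytes was at 0.72 (adjusted p 0.0546 in edgeR) and Nlrc5 in SPMs at 0.0050.

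Signs changed without 1 library for H2-Q4 (-0.12 to 0.053), Tapbp (-0.19 to 0.026) and Tap1 (-0.0050 to 0.14) in monocytes and for H2-D1 (-0.043 to 0.48), Nlrc5 (-0.52 to 0.59), H2-Q4 (-0.50 to 0.43) and B2m (-0.030 to 0.47) in SPMs. Tapbp in WT SPMs against WT monocytes was 0.0058 with DESeq2 and 0.0062 with RLE factors, and Nlrc5 was -0.064 to 0.92 without 1 library. With library totals Nlrc5 in WT SPMs against monocytes was -0.28, and in WT lung macrophages against SPMs H2-K1 was 0.62, H2-D1 0.32 and H2-T23 0.19. The lowest count of a member in any library was 12, for H2-Q4 in WT SPMs.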
